A study of Mus musculus with 6 samples.

Results

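The genes described here are the collagen genes, those that encode the alpha chains of collagen trimers. They were chosen as the mouse protein-coding genes on chromosomes 1 to 19 whose symbol reads Col, a number, a and a number, which gave 42 of the 20556 genes tested. ChIP-seq, which maps where a protein or a histone mark sits on DNA, was performed on cardiac neural crest of E10.5 mouse embryos. The embryos came from Wnt1-Cre2 males mated with mTmG females, and cells carrying GFP were sorted from pharyngeal arches 3 to 6. The 3 groups, of 2 libraries each, were CHD7 chromatin, H3K27ac chromatin and input chromatin, which was sequenced without precipitation. All 3 groups shared the Cre driver and the reporter, and the labels name no mutation of Chd7. Wnt1-Cre2 marks cells by descent from Wnt1-expressing precursors, so the sorted population is a lineage and may hold several cell types. Nothing in the labels says that library 1 and library 2 of an antibody are from different litters or sorts, so the spread between them may be technical.

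Collagens are trimers of alpha chains wound into a triple helix, and they form much of the extracellular matrix. Fibrillar types build the fibres of connective tissue, type IV forms the sheet of basement membranes, and the FACIT types decorate fibrils. In the arches, crest cells give rise to mesenchyme that settles in the walls of the great vessels and in the outflow tract, tissues in which collagen later bears load. CHD7 is an ATP-dependent chromatin remodeller that is mutated in CHARGE syndrome, and H3K27ac, acetylated lysine 27 of histone H3, marks promoters and enhancers in use.

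The deposited lists held 31425 and 26600 CHD7 peaks and 23786 and 22244 H3K27ac peaks, against 417 and 475 input peaks, on chromosomes 1 to 19. Peaks of the 2 libraries of an antibody that overlapped by at least 1 bp were merged into 19712 consensus regions for CHD7 and 17404 for H3K27ac. Every value below called fold is the authors' fold enrichment of a peak, given for library 1 and then library 2, and it ranks peaks within a list only. The median fold of a consensus region, over the mean of its libraries, was 3.46 for CHD7 and 4.06 for H3K27ac. Since the lists give peaks without read numbers, sequencing depth is unknown. A peak in a sorted population cannot tell a mark in few cells from a weak mark in many. As a check of the label, 3 of 8 neural crest markers had a CHD7 region and 2 of 8 an H3K27ac region within 1 kb of a gene end, against 46.2% and 49.3% of all genes, and Sox10, Foxd3, Tfap2a and Pax3 had neither. At their ends the neural crest markers thus did not stand above other genes. Away from the ends, 5 of the 8 were nearest to a CHD7 region, against 11.9% of all genes, and 2 to an H3K27ac region, against 8.36%. In their bodies 2 of the 8 had CHD7, against 15.8%, and 2 had H3K27ac, against 12.9%. Other lists had such regions too, and a CHD7 region was nearest to 3 of 6 neuronal markers. Of 8 markers of caudal arch mesenchyme, 0 had CHD7 and 3 had H3K27ac within 1 kb of an end, and of 6 cardiomyocyte markers none had either there. Both antibodies were at Klf1 and Spi1 of 5 blood markers, at Elavl4 and Tubb3 of 6 neuronal markers, at Sox9 and Col2a1 of 6 cartilage markers and at Tcf15 of 4 markers of muscle and mesoderm, against 41.2% of all genes. CHD7 alone was at Kdr of 6 endothelial markers, at Epcam and Foxa1 of 6 epithelial markers and at Comp of the cartilage markers, and H3K27ac alone at Krt8 of the epithelial markers. None of these lists exceeded the share of all genes with both antibodies at an end. The part of other cells in the results on collagen genes was not tested.

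CHD7 and H3K27ac each lay at the ends of a minority of collagen genes, as they did over all genes. Where CHD7 was at an end, H3K27ac was too in 13 of 18 collagen genes, against 8459 of 9500 among all genes. Within 1 kb of either gene end, 18 of the 42 collagen genes (42.9%) had a CHD7 consensus region, against 46.2% of all genes. H3K27ac was found at 16 of the 42 (38.1%), against 49.3% of all genes. Both antibodies were found at 13 collagen genes (31%), against 41.2% of all genes, and neither at 21, against 45.6%. CHD7 alone was found at 5 (11.9%), against 5.06% of all genes, and H3K27ac alone at 3, against 8.14%. Of the 5 with CHD7 alone, only Col19a1 kept CHD7 among peaks with a −log10 q of 5 or more. At that limit both antibodies were at 6 collagen genes, against 27.4% of all genes. The share with CHD7 was thus near that of all genes at the authors' threshold, though not among stronger peaks (16.7% against 30.9% at a −log10 q of 5 or more). The shares with H3K27ac and with both were below it, and none of these differences was tested, since genes are not replicates. No collagen gene had an input peak in its body or within 1 kb of it in either input library.

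Of the 11 fibrillar genes, the class with the most members, 8 had CHD7, 8 had H3K27ac and 7 had both. Over all genes the shares were 46.2%, 49.3% and 41.2%, and these also stand beside the counts of the smaller classes. Among peaks with a −log10 q of 5 or more, CHD7 remained at the fibrillar genes Col1a1, Col1a2, Col2a1 and Col5a1 alone, against 30.9% of all genes. H3K27ac remained at all 8, against 42.7%. No difference between classes was tested, and the counts below are at the authors' threshold. Of the 9 FACIT genes, 2 had CHD7 and 1 had H3K27ac, and none had both. Of the 7 genes of the beaded filament class, none had CHD7 and 1 had H3K27ac. Of the 7 network genes tested, 2 had both, and these were Col4a1 and Col4a2. The transmembrane class had CHD7 at 3 of 4 and H3K27ac at 2, and the multiplexins had CHD7 at both genes and H3K27ac at 1.

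**Figure D1:**
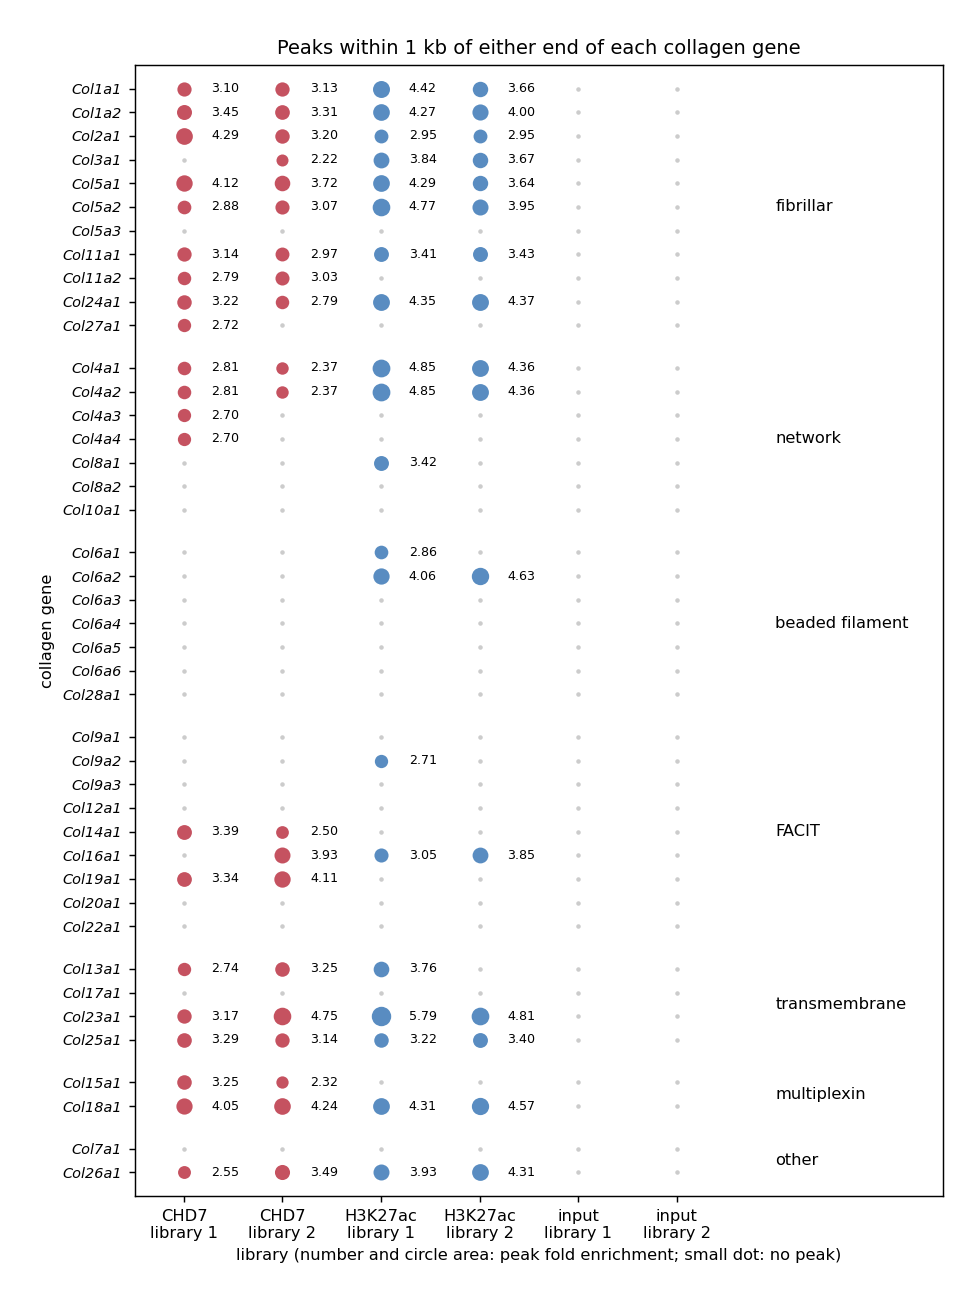
Highest fold enrichment among each library's own peaks within 1 kb of either end of the 42 collagen genes, by class, in 2 CHD7, 2 H3K27ac and 2 input libraries (circle area and number, fold; small dot, no peak). Most fibrillar genes have circles in the CHD7 and H3K27ac columns, beaded filament genes are nearly empty, and the input columns are empty.

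Among the fibrillar genes, both chains of type I collagen, the main fibre of connective tissue, carried both antibodies. At Col1a2, which encodes the alpha 2 chain, CHD7 had a fold of 3.45 and 3.31 and H3K27ac one of 4.27 and 4.0. The CHD7 region ran from -17 to 1248 bp of the start site (negative before it), and the H3K27ac region from -36 to 1205 bp, so they covered nearly the same stretch. At Col1a1, which encodes the alpha 1 chain, CHD7 had 3.1 and 3.13 and H3K27ac 4.42 and 3.66 at the gene end of lower coordinate, with 634 bp shared. Col3a1, whose type III homotrimers run with type I in vessel walls, had H3K27ac of 3.84 and 3.67 from 130 to 1309 bp after its start. CHD7 passed there in library 2 alone, with a fold of 2.22, and so was no consensus region.

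The 250 bases before the start sites of Col1a2 (GRCm38.p6, plus strand, chr6:4505368-4505617) and Col3a1 (plus strand, chr1:45311288-45311537) are shown because these 2 fibrillar genes differ in whether CHD7 passed in both libraries. Sequences are from RefSeq, 5′ to 3′ toward the start, and capitals mark GGGCGG (the GC box), TATAAA (the TATA box) or CCAAT on either strand.
Col1a2: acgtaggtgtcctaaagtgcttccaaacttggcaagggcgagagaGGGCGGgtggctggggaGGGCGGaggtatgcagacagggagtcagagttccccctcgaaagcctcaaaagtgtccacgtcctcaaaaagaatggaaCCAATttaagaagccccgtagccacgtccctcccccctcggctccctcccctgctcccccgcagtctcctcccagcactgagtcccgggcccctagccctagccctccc
Col3a1: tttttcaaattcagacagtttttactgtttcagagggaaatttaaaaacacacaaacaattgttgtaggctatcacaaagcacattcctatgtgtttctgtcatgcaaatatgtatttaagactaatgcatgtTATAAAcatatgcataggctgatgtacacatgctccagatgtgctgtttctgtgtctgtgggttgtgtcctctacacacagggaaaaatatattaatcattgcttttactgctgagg
The Col1a2 window holds 62% G and C, with GC boxes 205 and 188 bases before the start and a CCAAT box at 109. The Col3a1 window holds 35.2% G and C, no CpG and a TATAAA 117 bases before the start. These matches describe the letters and are not sites of binding.

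Type V collagen, which starts fibrils and sets their width, had both antibodies at Col5a1 and Col5a2. Col5a1 had CHD7 of 4.12 and 3.72, above 71.5% of CHD7 regions, and H3K27ac of 4.29 and 3.64. Col5a2 had CHD7 of 2.88 and 3.07, above 22.6% of CHD7 regions, and H3K27ac of 4.77 and 3.95. The chains thus ranked far apart for CHD7 and closer for H3K27ac, at 47.3% for Col5a1 and 58.6% for Col5a2. Col5a3, the third chain, had no region of either antibody at any location.

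Col2a1, the cartilage fibre, had CHD7 at both ends. At the lower-coordinate end the fold was 4.29 and 3.20 with no H3K27ac, and at the upper end it was 2.27 and 3.12 beside H3K27ac regions of 2.95 and 2.40 and of 2.89 and 2.95. Col11a1, a cartilage partner of Col2a1, had both antibodies at its start but on opposite sides of it. Its CHD7 region, of 3.14 and 2.97, lay 102 to 562 bp after the start, and its H3K27ac region, of 3.41 and 3.43, lay at -891 to -195 bp of it, before the start. It is the only one of the 13 genes with both antibodies whose regions at the ends did not overlap. Col11a2 had CHD7 of 2.79 and 3.03 without H3K27ac, in a region also within 1 kb of an end of the neighbouring Rxrb. Col24a1, a minor fibrillar chain, had both. Its CHD7 was at 3.22 and 2.79 and its H3K27ac at 4.35 and 4.37, with 729 bp shared. Col27a1, another fibrillar chain of cartilage, has a start site 1.4 kb inside the outer end of its gene and so counts under gene bodies. Both antibodies covered that start, CHD7 at 3.31 and 4.59 and H3K27ac at 4.36 and 5.48, with 586 bp shared.

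Col4a1 and Col4a2, the 2 main chains of basement membranes, lie head to head, with start sites 21 bp apart. A single region of each antibody covered both starts, with 1156 bp shared, so the 2 genes are not separate evidence. CHD7 there was weak for its list, at 2.81 and 2.37, above 6.19% of CHD7 regions, while H3K27ac was at 4.85 and 4.36, above 64.5% of H3K27ac regions. Col4a3 and Col4a4, chains of the kidney filter's basement membrane, also overlap at their ends, by 114 bases. Library 1 of CHD7 had a peak there with a fold of 2.70, library 2 had none, and H3K27ac had none.

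Col8a1 and Col8a2, which form hexagonal nets under endothelium, had no consensus region at their ends, and Col8a1 had an H3K27ac peak of 3.42 in library 1 alone. Col10a1, the collagen of hypertrophic cartilage, had no region of either antibody at any location. Its 250 bases before the start (GRCm38.p6, plus strand, chr10:34389731-34389980, RefSeq) are shown as a start window without a region, with the TATAAA in capitals 32 bases before the start.
Col10a1: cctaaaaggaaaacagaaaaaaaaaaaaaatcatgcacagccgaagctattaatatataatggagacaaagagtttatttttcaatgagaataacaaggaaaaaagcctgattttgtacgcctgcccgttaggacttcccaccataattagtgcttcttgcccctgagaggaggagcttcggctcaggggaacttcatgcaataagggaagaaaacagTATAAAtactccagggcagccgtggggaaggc
This window holds 41.6% G and C, no GC box and no CCAAT box.

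Type VI collagen forms beaded filaments around cells from the products of Col6a1, Col6a2 and Col6a3. Col6a2 alone had a consensus region at an end, of H3K27ac at 4.06 and 4.63, with no CHD7 peak in either library. Col6a1 had an H3K27ac peak of 2.86 in library 1 alone. Col6a3, Col6a4, Col6a5, Col6a6 and Col28a1 had no peak at an end in any library.

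No FACIT gene had consensus regions of both antibodies at its ends. Col19a1 had CHD7 of 3.34 and 4.11 from 156 to 878 bp after its start, and Col14a1, whose product binds fibril surfaces, had CHD7 of 3.39 and 2.5 at its lower end, both without H3K27ac. Col16a1 had H3K27ac of 3.05 and 3.85, and a CHD7 peak of 3.93 in library 2 alone. In Col9a1, a chain of type IX collagen with a long and a short form from different promoters, the antibodies marked the inner start and not the outer one. At the inner start CHD7 was at 3.16 and 2.53, from 225 to 1044 bp after it, and H3K27ac at 3.64 and 3.1, from 190 to 800 bp after it, with 576 bp shared.

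The 250 bases before the outer start (GRCm38.p6, plus strand, chr1:24177360-24177609) and before the inner start (plus strand, chr1:24194953-24195202) of Col9a1, from RefSeq, are shown because the regions tell these 2 starts of one gene apart. The CCAAT box is in capitals, 18 bases before the inner start.
Col9a1 outer start: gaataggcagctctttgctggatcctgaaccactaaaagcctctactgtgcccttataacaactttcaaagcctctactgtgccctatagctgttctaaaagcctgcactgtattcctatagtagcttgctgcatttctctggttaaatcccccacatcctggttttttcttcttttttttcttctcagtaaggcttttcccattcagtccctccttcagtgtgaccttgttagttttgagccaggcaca
Col9a1 inner start: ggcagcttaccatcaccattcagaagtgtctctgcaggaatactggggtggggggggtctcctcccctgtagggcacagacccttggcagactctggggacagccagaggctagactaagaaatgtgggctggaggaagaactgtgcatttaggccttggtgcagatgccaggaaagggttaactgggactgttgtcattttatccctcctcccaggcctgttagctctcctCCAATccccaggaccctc
Neither window holds a CpG, and G and C make up 43.6% of the outer and 56% of the inner window.

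Among the transmembrane collagens, Col23a1 had CHD7 just before its start, at -388 to -40 bp of it, at 3.17 and 4.75. Its far end carried 2 further CHD7 regions, of 3.02 and 3.17 and of 2.88 and 2.45, and an H3K27ac region of 5.79 and 4.81 that overlapped both. Those far-end regions also lie within 1 kb of an end of Phykpl, so they cannot be assigned to Col23a1 alone. Col25a1, a neuronal transmembrane collagen, had CHD7 of 3.29 and 3.14 across its start and 2 H3K27ac regions within it, of 3.21 and 3.02 and of 3.22 and 3.40. Col13a1 had CHD7 of 2.64 and 3.25 at the end far from its start, while H3K27ac passed at both ends in library 1 alone. Col17a1, the hemidesmosome collagen of epithelia, had no region at any location.

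The multiplexins are basement membrane collagens that carry heparan or chondroitin sulphate chains, and Col18a1 is the source of endostatin. Col18a1 had CHD7 of 4.05 and 4.24 and H3K27ac of 4.31 and 4.57 at the same place just after its outer start, with 1287 bp shared. It held the highest rank among the end regions of CHD7 at collagen genes, above 78.5% of CHD7 regions. Col15a1 had CHD7 of 3.25 and 2.5, from 192 to 1241 bp after its start, and no H3K27ac peak in either library. Col26a1 had both at its upper end, CHD7 at 2.55 and 3.49 and H3K27ac at 3.93 and 4.31. Col7a1, the anchoring fibril of skin, had none. The 250 bases before the Col15a1 start (GRCm38.p6, plus strand, chr4:47207762-47208011, RefSeq) are shown as a start with CHD7 alone, and they hold none of the 3 motifs.
Col15a1: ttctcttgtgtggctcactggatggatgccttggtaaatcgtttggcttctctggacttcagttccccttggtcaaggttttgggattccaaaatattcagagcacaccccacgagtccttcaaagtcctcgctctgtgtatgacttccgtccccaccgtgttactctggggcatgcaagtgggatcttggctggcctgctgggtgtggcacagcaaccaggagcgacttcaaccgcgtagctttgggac

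The end regions of collagen genes were modest for their lists. Their median fold was 3.04 for CHD7 over 20 regions, against 3.58 for the end regions of all genes, and 4.04 for H3K27ac over 17 regions, against 4.47. A CHD7 end region that overlapped H3K27ac was present at 12 of the 42 collagen genes, against 39.6% of all genes. Of the CHD7 end regions, 12 of 20 (60%) overlapped an H3K27ac region, against 80.4% of those of all genes. Of the H3K27ac end regions, 12 of 17 (70.6%) overlapped a CHD7 region, against 72.8%. Among peaks with a −log10 q of 5 or more, CHD7 remained at the ends of 7 collagen genes (16.7%), against 30.9% of all genes: Col1a1, Col1a2, Col2a1, Col5a1, Col18a1, Col19a1 and Col23a1. H3K27ac remained at 15 collagen genes (35.7%), against 42.7%. At a −log10 q of at least 10, CHD7 remained at Col18a1 and Col23a1 alone (4.76%), against 11.2% of all genes, and at Col23a1 in the far-end region shared with Phykpl. H3K27ac remained at 9 collagen genes (21.4%), against 29.6%.

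Start sites were known from RefSeq for 33 of the 42 genes, and those of Col1a1, Col2a1, Col4a3, Col5a2, Col9a3, Col12a1, Col14a1, Col22a1 and Col26a1 were not used here. CHD7 lay within 1 kb of a start site in 14 of the 33, against 47.6% of all genes with a known start, and H3K27ac in 13 of the 33, against 51.5%. The midpoint of the CHD7 regions at starts was a median of 512 bp after the start in collagen genes, and 12 of 14 midpoints lay after it (85.7%). Over all genes the median was 184 bp, with 60.1% after the start. For H3K27ac the median was 272 bp with 9 of 14 after the start (64.3%) in collagen genes, against 198 bp and 62.8% over all genes. For each antibody the 1 region over Col4a1 and Col4a2 is counted 2 times among the 14. Its midpoint lay after the Col4a1 start and before the Col4a2 start. CHD7 at collagen starts thus sat further into the gene than CHD7 at all starts, a description with no test, since regions are not replicates.

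**Figure D2:**
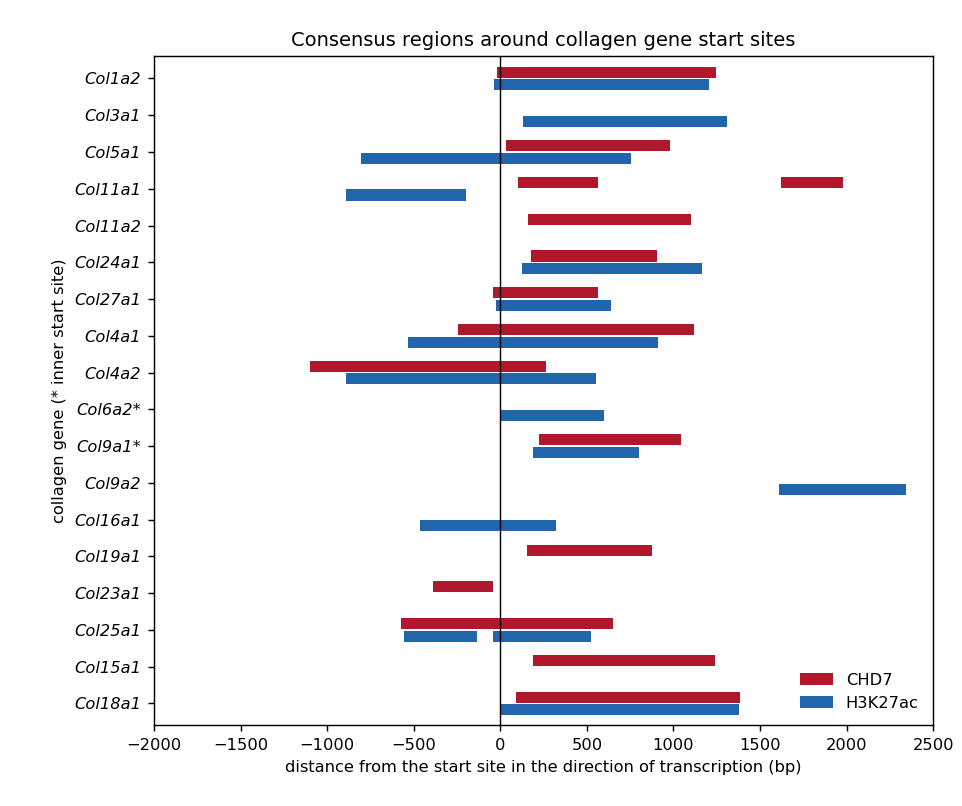
Extent of CHD7 (upper bars) and H3K27ac (lower bars) consensus regions around the start sites of collagen genes with a region there, in bp along the direction of transcription (an asterisk marks an inner start site). Col1a2 and Col18a1 have nearly coincident bars, Col11a1 has its bars on opposite sides of the start, and Col15a1 and Col19a1 have CHD7 alone after it.

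Base composition at the starts differed between collagen genes with and without a region. Over windows of 300 bases, 250 before to 50 after the start, the ratio of observed to expected CpG had a median of 0.627 in 14 collagen windows with CHD7 and 0.363 in 22 without. Over all genes it was 0.804 with CHD7 and 0.270 without. For H3K27ac it was 0.548 in 14 collagen windows and 0.399 in the 22 without, against 0.802 and 0.247 over all genes. The gap between starts with and without a region was thus narrower among collagen genes. Single genes went against it: Col13a1, Col8a2 and Col5a3 had CpG-rich starts with neither region, while Col3a1 and the inner start of Col9a1 had regions at starts almost free of CpG. The overlapping windows of Col4a1 and Col4a2, and those of the 2 starts of Col6a2, are counted separately here.

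**Figure D3:**
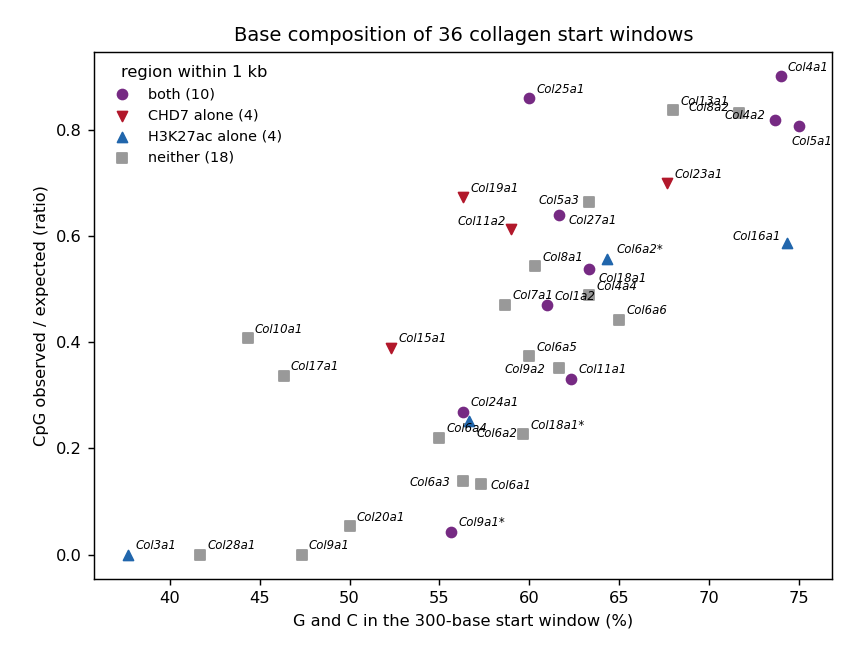
Percent of G and C against the CpG observed-to-expected ratio in 36 start windows of 33 collagen genes (asterisk, inner start site), by the regions within 1 kb of the start. Windows with both antibodies run across the whole CpG range, from the inner start of Col9a1 near 0 to Col4a1 at 0.902.

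The GC box was the most frequent of the 3 motifs at collagen starts. GGGCGG, searched on both strands, was found in 11 of the 14 collagen windows with H3K27ac (78.6%) and in 10 of the 22 without (45.5%), against 68.8% and 25.3% over all genes. CCAAT was found in 8 of the 14 with H3K27ac and 4 of the 22 without, against 37.6% and 38.6% over all genes. TATAAA was found in 1 of the 14 with H3K27ac (7.14%) and 4 of the 22 without (18.2%), near the 5.72% and 19.7% over all genes. In the 250 bases before the start, GGGCGG was present in 20 of 36 collagen windows and in 43.4% of all windows, CCAAT in 12 and 35.3%, and TATAAA in 5 and 11.7%.

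Inside the genes the picture was different. CHD7 had a consensus region in the body, beyond 1 kb of the gene's own ends, in 21 of the 42 collagen genes (50%), against 15.8% of all genes. H3K27ac had one in 11 of the 42, against 12.9%. Both were present in the bodies of 8 collagen genes, against 9.86% of all genes, CHD7 alone in 13, against 5.94%, and H3K27ac alone in 3, against 3.08%, and neither in 18, against 81.1%. Collagen genes are long, with a median of 110 kb, against 17.6 kb for all genes. Among genes of at least 50 kb, a comparison chosen after the data were seen, CHD7 was in the body of 18 of 27 collagen genes (66.7%), against 41.3% of all such genes, and H3K27ac in 8 of 27, against 32%. At the ends of these 27 genes CHD7 was found in 14, against 56.2% of all such genes, and H3K27ac in 11, against 57.9%. Those 27 had a median length of 136 kb, against 98.4 kb. Per megabase of gene length, ends included, collagen genes held 5.28 CHD7 body regions, against 5.17 in all genes, and 3.45 of H3K27ac, against 3.88. Among genes of at least 50 kb the values were 5.11 against 4.81 for CHD7 and 2.67 against 3.28 for H3K27ac. The number of CHD7 regions per length was thus close to that of all genes.

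**Figure D4:**
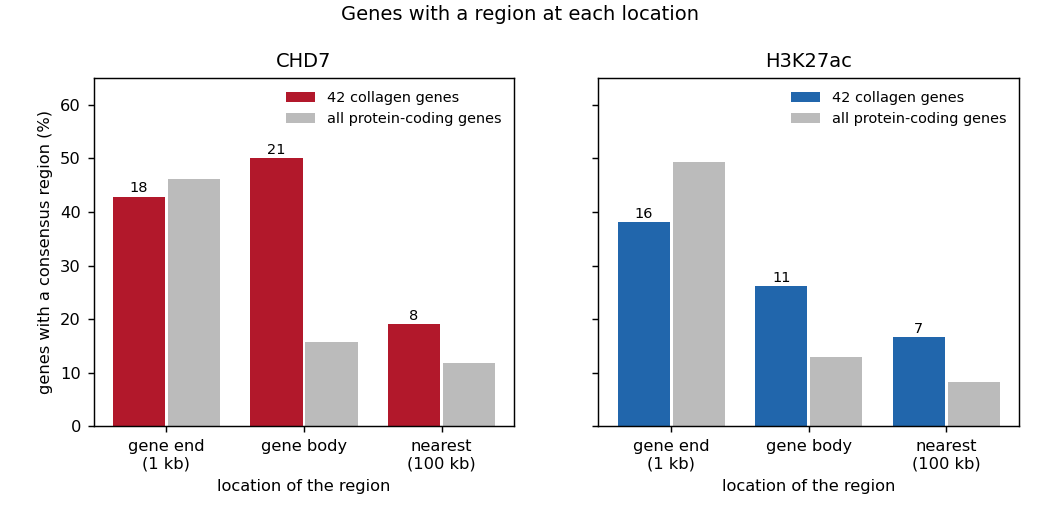
Percent of the 42 collagen genes (coloured, number of genes on the bar) and of all protein-coding genes (grey) with a CHD7 or H3K27ac consensus region at a gene end, in the gene body or nearest to the gene between genes. Gene bodies show the widest gap, 50% of collagen genes against 15.8% of all genes for CHD7.

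The CHD7 body regions mostly stood without H3K27ac, as did those of all genes. Of 26 such regions, 10 overlapped an H3K27ac region (38.5%), against 46.0% of the body regions of all genes, and their median fold was 3.23, against 3.26. Col19a1 held the highest, at 4.50 and 4.55, 219.9 kb inside the end where the gene starts and without H3K27ac. Col12a1, a FACIT chain of tendon, followed at 4.39 and 4.0, then Col25a1 at 4.75 and 3.52 and Col14a1 at 3.60 and 4.40, none with H3K27ac. These 4 regions ranked above 74.2% or more of CHD7 regions. Col27a1, at its start site, came next. Col6a6, at 4.35 and 3.37, was the highest of the type VI genes, all of which lacked CHD7 at their ends. Col3a1, which lacked a CHD7 consensus region at its start, had one in its body at 3.22 and 4.41. Col26a1 at 3.71 and 3.52, Col11a1 at 3.63 and 3.21 and Col8a2 at 3.50 and 3.25 made up the rest of the highest 10.

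The other body regions of CHD7 were in Col2a1, Col4a1, Col4a2, Col4a3, Col4a4, Col6a5, Col9a1, Col13a1, Col18a1, Col23a1 and Col28a1, with further ones in Col25a1 and Col26a1. At a −log10 q of at least 5, CHD7 remained in the bodies of 9 collagen genes, against 8.51% of all genes. At a −log10 q of at least 10 it remained in none, against 2.7% of all genes. Every CHD7 body region of a collagen gene thus had a −log10 q under 10 in 1 library or both.

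Among the body regions of H3K27ac, 10 of 17 overlapped CHD7 (58.8%), the same share as over all genes, and the median fold was 3.17, against 3.51. Col22a1, the collagen of muscle-tendon junctions, held the highest at 4.50 and 5.55, deep in the gene and without CHD7. Col27a1 followed at its start, and Col2a1 had 3.92 and 3.88 in a region that covered all 546 bp of a CHD7 region of 3.55 and 2.99, some 12.0 kb from its upper end. Col9a2, the second type IX chain, had 3.40 and 3.74, from 1608 to 2342 bp after its start, with no CHD7. Col8a2 had 2 H3K27ac regions, the higher at 3.39 and 3.20, and Col6a3 had 1 at 3.37 and 2.70, none of them overlapping CHD7. Col4a2, at 2.78 and 2.68, and Col13a1, at 2.39 and 2.38, had 1 each, and both overlapped CHD7. Col26a1 held the most body regions, 3 of CHD7 and 4 of H3K27ac, and each of the 3 CHD7 regions overlapped H3K27ac. Col18a1 held 2 of each, all overlapping, and each lay low in its list, above 13.4% of regions at most. At a −log10 q of at least 5, H3K27ac remained in the bodies of 7 collagen genes, against 8.61% of all genes. At a −log10 q of at least 10 it remained in those of Col2a1, Col26a1 and Col27a1, against 4.75% of all genes. Without library 2 of H3K27ac the count of collagen genes with a body region was 18, against 17.5% of all genes.

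**Figure D5:**
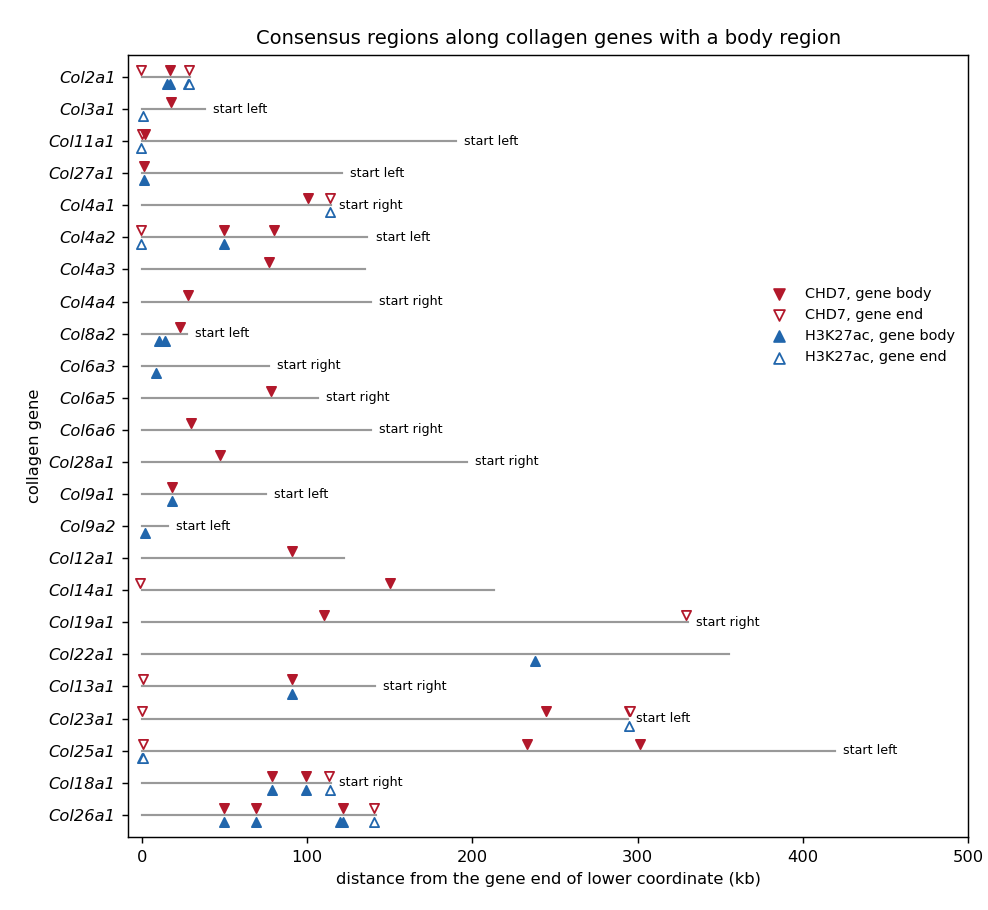
Positions of consensus regions along the 24 collagen genes with a body region, in kb from the gene end of lower coordinate (grey line, gene; filled, body region; open, end region; the start is marked left or right where known). CHD7 lies alone far inside Col19a1, Col12a1, Col14a1 and Col25a1, and Col26a1 and Col18a1 show paired symbols of both antibodies.

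Between genes, 8 of the 42 collagen genes were the nearest gene of a CHD7 region within 100 kb, against 11.9% of all genes. For H3K27ac this held for 7 of the 42, against 8.36%. Both antibodies had such a region at 6, against 6.01% of all genes, CHD7 alone at 2, against 5.9%, H3K27ac alone at 1, against 2.35%, and neither at 33, against 85.7%. The highest CHD7 region was 10.1 kb beyond the end of Col4a1 farthest from its start, at 4.0 and 4.71, where H3K27ac was at 3.09 and 2.64. One 22 kb beyond Col6a3 had CHD7 of 4.28 and 4.40 and H3K27ac of 3.8 and 2.90, the highest of the H3K27ac regions named for a collagen gene. Col6a3 thus had a region of both antibodies outside the gene, on the side away from its start, and none at its start. Upstream of Col1a2, a region 15.7 kb from the gene had CHD7 of 2.86 and 2.40 and H3K27ac of 3.53 and 2.81, and a second, 47.8 kb away, had CHD7 alone of 3.15 and 2.98. Both type I genes thus had a shared region outside the gene as well as at an end: one 6.7 kb beyond the lower end of Col1a1 had CHD7 of 2.62 and 2.90 and H3K27ac of 2.52 and 2.96. Beyond Col14a1, at 15.3 kb, CHD7 was at 5.38 and 2.93, values that differ widely between libraries. Beyond Col25a1, at 18.9 kb, CHD7 was at 2.85 and 3.37. Neither of these had H3K27ac beside it. Col18a1 had 2 CHD7 regions, 24.0 and 31.3 kb upstream, and an H3K27ac region of 2.82 and 2.52 that overlapped neither. Col6a1 had 2 H3K27ac regions upstream, of 3.40 and 3.01 at 7.5 kb and of 2.34 and 2.54 at 6.5 kb. The regions named for Col19a1, 24.3 kb from the gene, overlapped input peaks but are counted above. With regions at input peaks left out, 7 collagen genes were nearest to a CHD7 region, against 11.6% of all genes. For H3K27ac there were 6, against 8.22%. Without library 2 of H3K27ac, 11 collagen genes had a nearest region of that mark, against 12.6% of all genes.

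Over the 3 locations, 29 of the 42 collagen genes had a CHD7 region somewhere, against 58.1% of all genes, and 25 an H3K27ac region, against 58.6%. Both were present at 20, against 51.3% of all genes, CHD7 alone at 9, against 6.78%, H3K27ac alone at 5, against 7.24%, and neither at 8, against 34.6%. The 8 were Col5a3, Col6a4, Col7a1, Col8a1, Col9a3, Col10a1, Col17a1 and Col20a1. These counts include gene bodies and make no allowance for gene length, a median of 110 kb in collagen genes against 17.6 kb in all genes. Of all 56 CHD7 regions at collagen genes, 27 overlapped H3K27ac (48.2%), against 63.3% of all CHD7 regions assigned to a gene. These pooled shares mix locations in unlike parts: 26 of the 56 were in bodies, against 5037 of 18314 over all genes. In both sets body regions overlapped H3K27ac less often than end regions. Of the regions between genes, 5 of 10 overlapped it, against 39.5% over all genes. The pooled share was 31.1% with library 1 of CHD7 alone, where it was 49.4% over all genes.

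Genes that modify, secrete, crosslink, bind or degrade collagen carried these regions at their ends at shares near or somewhat above those of all genes. Of 56 such genes, 28 had CHD7 within 1 kb of an end (50%), against 46.2% of all genes, and 34 had H3K27ac (60.7%), against 49.3%. The same 46.2% and 49.3% stand beside the counts of each list below. P3h4 and Fkbp10 were counted through the same H3K27ac region and are not separate evidence. Of 18 genes of modification and folding in the endoplasmic reticulum, 11 had CHD7 and 14 had H3K27ac. Plod3, a lysyl hydroxylase and glycosyltransferase of procollagen, had the highest mean fold of both, CHD7 at 5.53 and 5.27 and H3K27ac at 7.59 and 7.10. Serpinh1, a dedicated collagen chaperone that was picked out after its values were seen, had CHD7 at 2.15 and 2.37 and H3K27ac at 2.93 and 3.21, below the median region of both lists. P4ha3, Plod2, Colgalt1 and Fkbp14 had neither at an end. In their bodies Plod2, Colgalt1 and Fkbp14 had both antibodies, and P4ha3 had H3K27ac.

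Of 12 genes of secretion and propeptide processing, 7 had CHD7 and 7 had H3K27ac. Sec23a, part of the coat of vesicles that leave the endoplasmic reticulum, had the highest mean fold of CHD7, at 3.68 and 4.67. Pcolce2, an enhancer of C-propeptide cleavage, had the highest of H3K27ac, at 6.06 and 6.14. At the ends Adamts2 and Tll1 had CHD7 alone, Adamts3 and Furin H3K27ac alone, and Sec24d, Tll2 and Adamts14 neither. In its body Sec24d had 3 CHD7 regions and 1 of H3K27ac, and Adamts14 had 1 of CHD7. Of 5 lysyl oxidases, which crosslink collagen, 3 had CHD7 and 4 had H3K27ac. Loxl1 led for CHD7 at 4.05 and 3.85 and Loxl3 for H3K27ac at 4.92 and 4.93, and Loxl4 had neither.

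Of 10 collagen receptors, 4 had CHD7 and 6 had H3K27ac, led by Itgb1, the shared beta chain of the collagen integrins, with CHD7 at 5.10 and 5.51 and H3K27ac at 6.36 and 7.07. Its partner Itga1 had both, Itga11 had H3K27ac alone, and Itga2 and Itga10 had neither. Gp6 and Lair1, receptors of platelets and of leukocytes, also had neither. Of 7 collagen-degrading proteases, Mmp2 and Mmp14, which activates the Mmp2 proenzyme, had both. Mmp2 had CHD7 at 4.47 and 3.98 and H3K27ac at 5.11 and 5.39, while Mmp1a, Mmp8, Mmp9, Mmp13 and Ctsk had neither. Of 4 matrix proteins that bind collagen, Fmod had CHD7 alone at an end, at 3.48 and 3.35, and Sparc H3K27ac alone, at 2.84 and 2.77. Dcn and Lum had neither at an end. Sparc had CHD7 in its body, and 2 CHD7 regions were nearest to Dcn.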

How the data were processed

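The authors deposited 6 peak lists, 1 for each library: 2 of CHD7, 2 of H3K27ac and 2 of input chromatin. The submitters' processing notes name MACS2 2.1.2, Bowtie2 2.3.3.1, bcl2fastq 2.18.0.12 and Picard, with build mm10. The sources used here do not say whether input was the control of the peak call. The deposited fold of a peak is a ratio, its enrichment at the summit as their caller computed it. Further deposited columns are the −log10 of the p-value and of the q-value, and an integer score made from the q-value. Read counts were not used here, so no counting interval is given, and folds are comparable within a list only. The caller's threshold sets which weak peaks appear, so a gene without a region may hold signal below it.

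Rows of a list that shared an interval were joined, keeping the highest fold and q. Peaks on chromosomes 1 to 19 were used. Consensus regions were merged overlapping peaks (at least 1 bp) found in both libraries of an antibody. Regions were assigned to RefSeq protein-coding genes (GRCm38.p6) whose start lay at 3000000 or above, which removed 105 of 20661: within 1 kb of either end, in the body beyond that, or, for regions at no gene, to the nearest gene within 100 kb. A region may count for several genes. Start sites and sequences are from RefSeq. No test was run, because genes and regions are not replicates. Counts stand beside the same counts over all genes. Collagen genes with a region at an end, the 10 highest body and nearest regions of each antibody, and in each related list the highest genes and those with neither were named. The collagen genes and the gene lists were chosen with earlier results of these data known. Assignment and merging were tested on simulated peaks. Alternatives were a −log10 q of at least 5 or 10, regions of either library, 500 bp and 2.5 kb, a 50 kb limit, each library left out, and regions at input peaks left out. Python 3.11.15, pandas 2.3.3, numpy 2.4.6 and matplotlib 3.10.9 were used.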

Additional observations from a re-analysis of the deposited data

How the results depend on the processing

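Of 81 values under alternatives of 14 results, 57 stayed within 1.5 times the reported count or within the spread between libraries, and 24 moved. With peaks of a −log10 q of at least 5, CHD7 was at the ends of 7 collagen genes, against 30.9% of all genes. Both antibodies were at 6, against 27.4%, and the bodies held CHD7 in 9, against 8.51%, and H3K27ac in 7, against 8.61%. At that limit 4 collagen genes were nearest to a CHD7 region, against 6.0% of all genes, and 1 to an H3K27ac region, against 4.64%. Of CHD7 regions at collagen genes, 36.4% overlapped H3K27ac, against 68.4% over all genes, and 18 related genes had CHD7 at an end, against 30.9%. At a −log10 q of at least 10 the ends held CHD7 in 2 collagen genes, against 11.2% of all genes. They held H3K27ac in 9, against 29.6%, and both in 2, against 9.03%. The bodies held CHD7 in 0, against 2.7%, and H3K27ac in 3, against 4.75%. At this limit 0 were nearest to a CHD7 region, against 2.17% of all genes, and 0 to an H3K27ac region, against 2.13%. The CHD7 regions left at collagen genes were all at the ends of Col18a1 and Col23a1. Of these few, 100% overlapped H3K27ac, against 64.8% over all genes. Related genes had CHD7 in 6, against 11.2%, and H3K27ac in 20, against 29.6%. Fewer peaks pass these limits by construction. With regions of either library, H3K27ac was in 19 bodies, against 19.2% of all genes. Then 13 collagen genes were nearest to CHD7, against 20.7%, and 11 to H3K27ac, against 14.8%. With each library left out, the share of CHD7 regions that overlapped H3K27ac was 31.1% to 53.6%, against 49.4% to 68.8% over all genes. H3K27ac was in 14 to 18 bodies, against 16.3% to 17.5% of all genes, and nearest to 7 to 11 genes, against 11.5% to 12.6%. CHD7 was at 20 to 21 ends, against 51.3% to 53.2%, and H3K27ac at 16 to 20, against 51.4% to 52.9%. No paired analysis was possible because the counts come from no test. The start-site results had 14 collagen genes for CHD7 and 14 for H3K27ac within 2.5 kb. With 2 libraries an antibody and unknown depth, weak regions cannot be told from absent ones.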
